A study of Canis lupus familiaris with 4 samples.

Results

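The hypoxia response of each gene was compared between MDCK cells with and without a knockdown of HIF2α, with all 4 arrays of the series. MDCK strain II is a canine kidney epithelial line. In the sample labels 1 pair of arrays is wild type for HIF2A and the other is HIF2A knockdown, and each pair has 1 normoxic and 1 hypoxic array. Per the methods, control cells carried a retrovirus with an empty shRNA cassette, which were taken here as the cells the labels call wild type. The knockdown line carried a retroviral shRNA against *EPAS1*, the gene of HIF2α, and infected cells were selected with puromycin. Cells were kept for 24 h in normoxia (16% O2) and then for 24 h in normoxia or in hypoxia (1% O2). Total RNA was measured on Affymetrix canine arrays. The question is which genes answered hypoxia differently under the knockdown label. With 1 array per condition there are no replicates, so every difference below is an effect size with no error and no p-value.

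A response is the value in hypoxia minus that in normoxia, on the scale of log2(intensity + 16), and 1 on this scale is a 2-fold change of a bright gene. The response difference is the response between the arrays labelled HIF2α-KD minus the response between the control arrays. It was taken for 9749 of 15115 genes, those whose brightest probe set reached an intensity of 28.75, the median of the table, on at least 1 array. A response of at least 1 in control cells was called lost where the response under the HIF2α-KD label was below 0.5 in size. It was called gained where the sizes were the other way round, and reversed where both responses were at least 0.5 in opposite directions. All of these also needed a response difference of at least 1 in size, and a response was called kept where both were at least 1 in the same direction and differed by less than 0.5.

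*EPAS1* was read first. Its intensity in control cells was 44.6 in normoxia and 116 in hypoxia, and under the HIF2α-KD label it was 47.9 and 32.6. At this probe set the labelled knockdown is thus seen in hypoxia and not in normoxia, but 3 of these values were not far above background. The other *EPAS1* probe set read 1.0 to 6.39, did not pass the filter and cannot show a knockdown. By RT-qPCR the study reports lower *EPAS1* mRNA in its knockdown lines. The decrease was strongest in HIF2α-KD#1, the line it names for its normoxic array comparison, and the normoxic values here do not show it. Each response under the HIF2α-KD label rests on the normoxic array with that label, and no response difference can be had without it. The median intensity of the arrays was 28.3 to 29.2. The 9 epithelial markers were above background on all arrays, with a summed intensity of 34916 to 38884. Of the 8 fibroblast markers 6, of the 6 endothelial markers 5 and of the 11 collecting duct and distal tubule markers 5 were at or below background on every array. Of the 6 leukocyte markers 1 was, and their summed intensity was 197 to 229. Background was the 95th percentile of 63 dim reporter probe sets, which represent no canine gene and lay at 20.6 to 27.2.

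Cells answer low oxygen through hypoxia-inducible factors, HIF1α and HIF2α, which are destroyed in normal oxygen after hydroxylation by prolyl hydroxylases such as those encoded by *EGLN1* and *EGLN3*. Stabilized HIFα subunits bind DNA with HIF1β and induce genes of glycolysis, angiogenesis and iron handling. In kidney epithelium HIF1α is best known for the glycolytic genes, whereas HIF2α shares many other targets with it and is a driver of clear cell renal carcinoma. NF-κB, a transcription factor of inflammation, is held in the cytoplasm by IκBα, the product of *NFKBIA*, and induces that gene itself.

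In control cells 294 genes had a response of at least 1 (3.02%) and 53 a response of -1 or lower (0.544%). Under the HIF2α-KD label the numbers were 134 (1.37%) and 41 (0.421%). The response was lower by at least 1 under the HIF2α-KD label for 174 genes, which is 1.78% of those measured, and higher by at least 1 for 73 genes, or 0.749%. Together these are 247 genes (2.53%), of which 4 carry a LOC symbol and are counted without a name. Responses were lost in 67 genes (0.687%), of which 59 were inductions. They were reversed in 50 genes (0.513%), of which 37 were induced in control cells and lower in hypoxia under the HIF2α-KD label. They were gained in 19 genes (0.195%), 8 inductions and 11 repressions. Of the remaining genes past the threshold 14 had a smaller and 6 a larger response in the same direction, and 91 met none of these definitions. In 69 genes (0.708%), 60 of them inductions, the response was kept. Of the 294 genes induced in control cells, 107 had a response difference below 0.5 in size, 85 were also induced by at least 1 under the HIF2α-KD label, and 71 had lost or reversed the response. Since the control response is subtracted, a lost induction takes in any error of the control arrays.

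**Figure D1:**
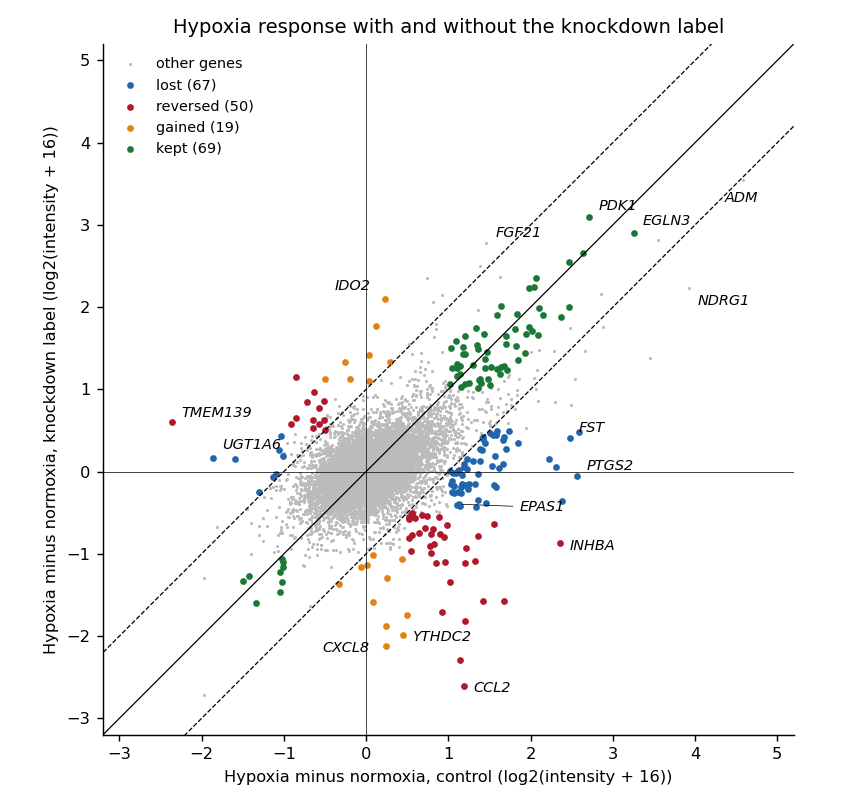
Each point is 1 of 9749 genes, with its hypoxia response in control cells on the horizontal axis and under the HIF2α-KD label on the vertical axis, both as differences of log2(intensity + 16). The solid line marks equal responses and the dashed lines a response difference of 1, and the colours mark the 67 lost, 50 reversed, 19 gained and 69 kept responses. *CCL2* lies farthest below the lines, and *PDK1* and *EGLN3* lie near the line of equal responses.

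Several genes of inflammation that control cells induced in hypoxia were already high on the normoxic array labelled HIF2α-KD and had large response differences. *CCL2*, which encodes a chemokine for monocytes and had the largest response difference in size, read 982 in normoxia and 2269.6 in hypoxia in control cells, and 7958 and 1292 under the HIF2α-KD label. The normoxic array labelled HIF2α-KD was the highest of the 4 and the normoxic control array the lowest. The response was 1.20 in control cells and -2.61 under the label, a response difference of -3.80. *BIRC3*, an inhibitor of apoptosis and NF-κB target, had the same order of arrays, with 1160.1 and 3735 in control cells and 6373 and 2127 under the label, and a response difference of -3.25. Its other 2 probe sets gave -2.24 and -2.11. *NFKBIA* read 667 and 1555 in control cells and 1608 and 738 under the label. Its control response of 1.20 was opposed by one of -1.11. For *NFKBIA* the higher array in each cell line was thus at the opposite oxygen level.

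*PTGS2*, which encodes cyclooxygenase-2, the inducible enzyme of prostaglandin synthesis, read 2003 and 11974 in control cells and 6408 and 6191 under the HIF2α-KD label. Here the induction of 2.57 was lost and not reversed, since both arrays with the label lay between the control arrays. *CXCL8*, a neutrophil chemokine, was near background on 3 arrays, at 28.3, 36.4 and 24.5, and read 161 on the normoxic array labelled HIF2α-KD. Its repression under the label (-2.13) had no counterpart in control cells (0.24). Of 22 measured genes of the NF-κB and inflammatory list, 10 had a lower response by at least 1 and none a higher one, against 1.78% and 0.749% of all genes. The list median of the response difference was -0.76, against -0.0023 for all genes, and 21 of the 22 lay below 0. Its median response was 0.47 in control cells and -0.24 under the label. Besides the genes above, the 10 were the receptor gene *CD40* (-1.51), the growth factor gene *CSF2* (-1.20), *CXCL16* (-1.15), the adhesion molecule gene *ICAM1* (-1.14) and the NF-κB subunit gene *NFKB1* (-1.05), and of these 5 and *NFKBIA* all but *CXCL16* were named after their values were seen.

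Some genes of proteolysis and of the matrix were reversed as well. The collagenase gene *MMP13* read 526 and 1181 in control cells and 4263 and 860.4 under the HIF2α-KD label. It was induced by 1.14 in control cells and its response under the label was -2.29, and its other probe set gave the same response difference of -3.43. *PLAU*, which encodes the plasminogen activator urokinase, read 168 and 476 in control cells and 535 and 169.8 under the label. The arrays fell into a high pair, the hypoxic control array and the normoxic array labelled HIF2α-KD, and a low pair. Its response difference was -2.99. *MMP9*, a gelatinase, was at 29.3 and 69.7 in control cells and at 228 and 58.9 under the label, and differed by -2.62, but its other probe set differed by only -0.03. *TIMP3*, which encodes an inhibitor of these proteases, had a response of 0.90 in control cells and of -0.76 under the label. Of the 12 measured genes of proteases and plasminogen activation these 4 were lower by at least 1, against 1.78% of all genes, and 4 of the 12 lay above 0. The list median was -0.28.

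Of 21 genes of laminins, collagen IV and integrins 4 had a lower response by at least 1 and 19 lay below 0, against 1.78% and 4909 of all 9749 genes, with a median of -0.53. The laminin chain gene *LAMA3* read 1458 and 2967 in control cells and 4243 and 1661 under the HIF2α-KD label, again with the hypoxic control array and the normoxic array labelled HIF2α-KD as the higher ones. Its response difference was -2.36, and its other probe set gave -2.47. The collagen receptor gene *ITGA2* lost its induction, from 1.11 to -0.41. *LAMB3*, a partner of *LAMA3* in laminin 332, differed by -1.14 and *ITGAV*, an integrin chain for vitronectin and fibronectin, by -1.03. The other probe set of *LAMB3* differed by only -0.40, and the other 2 of *ITGAV* by -1.10 and -0.35.

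Genes of epithelial to mesenchymal transition, by which epithelial cells lose junctions and become motile, had a list median of -0.80. Of the 19 genes listed 10 were measured, and all 10 lay below 0, against 4909 of all 9749 genes. *SNAI2*, a repressor of E-cadherin, read 542 and 2739 in control cells and 1218 and 1266 under the HIF2α-KD label. Both arrays with the label lay near each other and between the control arrays, so that the induction of 2.31 was lost (0.05). *ZEB1*, another such repressor, was dim, at 11.9 and 34.4 in control cells and 79.4 and 28.3 under the label, and differed by -1.96. With *MMP9*, which is also on this list, these were the 3 that passed -1, against 1.78% of all genes. *SNAI1* and *ZEB2* did not pass the intensity filter, and *VIM*, which encodes vimentin, differed by -0.07 at an intensity near the top of the scale, and whether a difference would show there was not tested. Fibroblast markers, most of them at background, had a summed intensity of 127 and 226 in control cells and 119 and 164 under the label. This order came from *PDGFRA*, a growth factor receptor gene, at 31.5 and 145 in control cells and 33.8 and 75.7 under the label. Their part in these values was not tested.

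Targets of YAP and SRF, transcription regulators that follow tension of the actin cytoskeleton, had a median of -0.56 over 21 genes. Of these 17 lay below 0, against 4909 of all 9749 genes. *ANKRD1*, a target of YAP, read 517 and 2755 in control cells and 1939.6 and 1511 under the HIF2α-KD label. The normoxic control array was the lowest, and the induction of 2.38 was lost (-0.36), with a response difference of -2.74, or -3.03 in its other probe set. The actin crosslinker gene *FLNA* (-1.10) was the other gene of the list past the threshold, and 1.78% of all genes were lower by at least 1. Of 15 immediate early genes, *DUSP1*, a phosphatase of MAP kinases, alone passed the threshold, with a lower response, against 1.78% of all genes. It read 351 and 1114 in control cells and 503 and 519 under the label, and the hypoxic control array stood above the other 3. Its response was 1.62 and 0.04, and its other 2 probe sets differed by -1.41 and -0.35. *JUN* had a response of 1.51 and 0.76, and the median of the list was -0.48.

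In the activin, TGF-β and BMP pathways the response differences ran both ways. *INHBA*, which encodes the activin subunit βA, read 947 and 4923 in control cells and 3763 and 2059.6 under the HIF2α-KD label, a response of 2.36 against -0.86 and a difference of -3.22. Its antagonist follistatin, the product of *FST*, read 266 and 1552 in control cells and 471 and 632 under the label. For *FST* the hypoxic control array stood above all others, and the induction of 2.47 was lost (0.41). The ligand gene *TGFB2*, named after its values were seen, lost its induction as well, from 1.38 to 0.27. The opposite order held for *BMP2*, a BMP ligand, which read 725 and 1282 in control cells and 335 and 1446 under the label. The normoxic array labelled HIF2α-KD was the lowest, and the hypoxic arrays were close, so that the response was larger under the label, 2.06 against 0.81. *ID1*, a target of BMP signals, differed in the same direction, by 1.61, with 551 and 929.9 in control cells and 238 and 1278 under the label. Of 22 measured genes of these pathways 2 were higher and 3 lower by at least 1, against 0.749% and 1.78% of all genes. The list median was -0.22, and 4 were induced by at least 1 in each pair. *BAMBI*, a pseudoreceptor that opposes TGF-β, differed by -0.67.

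**Figure D2:**
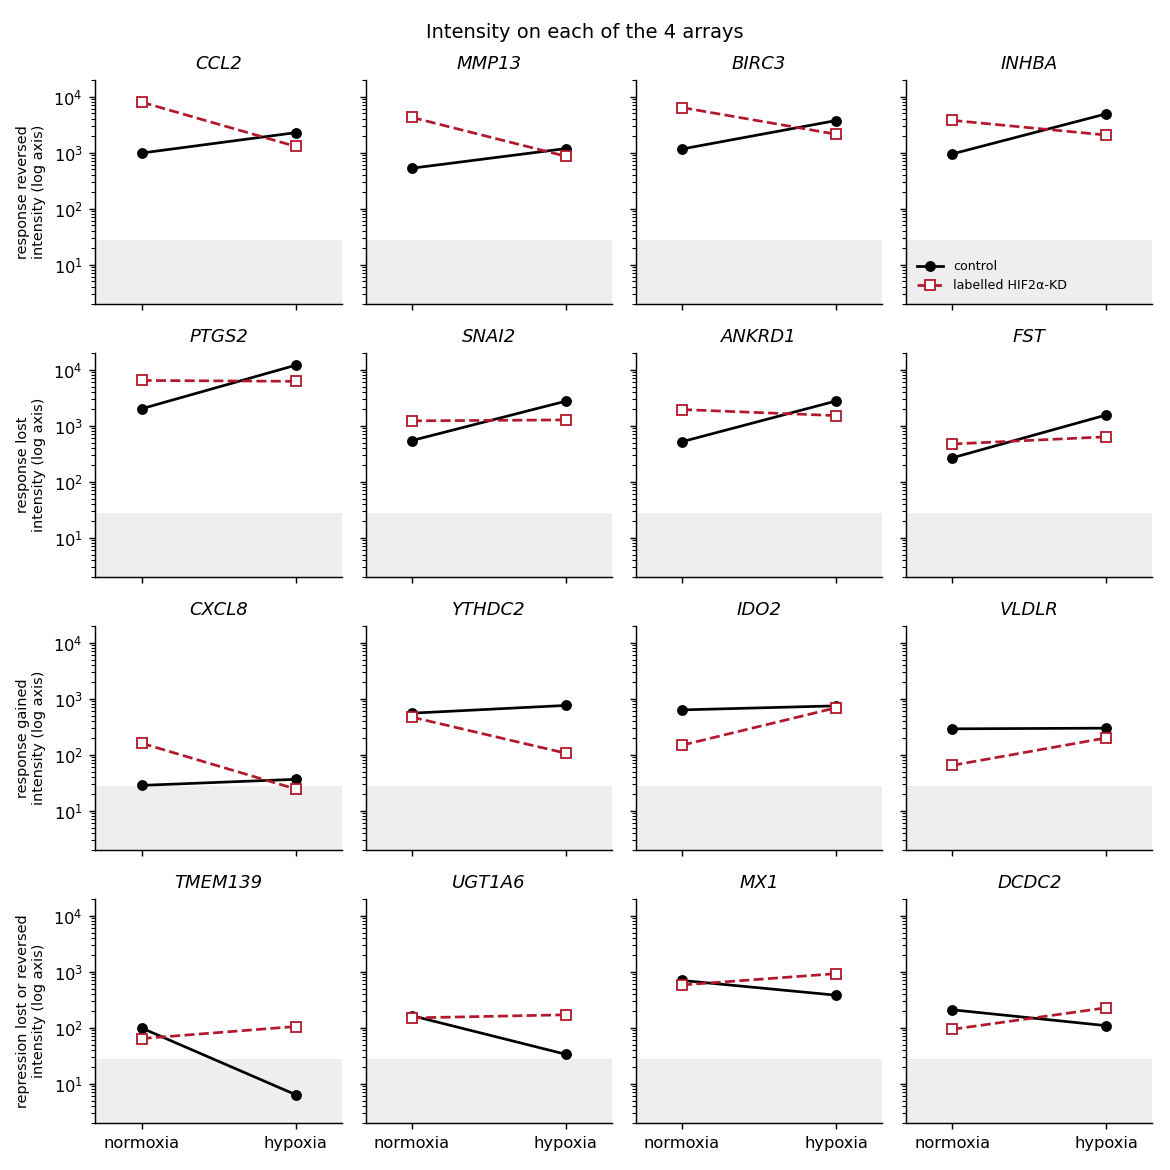
Intensity (log axis) of 16 genes in normoxia and hypoxia, with black circles for control cells and open red squares for the HIF2α-KD label, each of them 1 array. The lines join both arrays of 1 cell line, error bars cannot be given, and the grey area lies below 27.2, the highest background of any array. The lines cross in the upper row, run level under the label in the next, and of the gained responses *IDO2* and *VLDLR* start from a low normoxic array labelled HIF2α-KD, whereas *YTHDC2* is low only on the hypoxic one.

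In most of the other lost inductions named here the hypoxic array with the HIF2α-KD label was near the normoxic arrays. *TRPV6*, an epithelial calcium channel gene, read 73.1 on the hypoxic control array and 3.10, 2.69 and 4.85 on the others, all 3 below background. It passed the filter only through the hypoxic control array, and its response difference of -2.06 depends on the added 16. *DDIT3*, which encodes the stress factor CHOP, read 184 and 579.7 in control cells and 131 and 185 under the label. Only the hypoxic control array was high, and the response of 1.57 was lost (0.45). *EPAS1* itself belongs to this class, with responses of 1.13 and -0.40 and a difference of -1.52, and it is the gene the shRNA is directed against. *DPP4*, an apical peptidase, was an exception, at 53.7 and 403 in control cells and 124 and 179 under the label. Both arrays with the label lay between the control arrays, and *DPP4* differed by -2.11, or -1.95 in its other probe set. *TIPARP*, a mono-ADP-ribosyltransferase, differed by -1.77, and its hypoxic control array (1065) stood above the other 3 (412, 613 and 451). The kinase gene *NUAK2* differed by -1.84, with a highest intensity of 47.5 on the hypoxic control array, through which alone it passed the filter. Of the 59 lost inductions, 42 had the larger knockdown difference in hypoxia and 17 in normoxia, and all 59 were lower under the label than in control cells in hypoxia, which the definition makes likely. Of the 37 reversed inductions 32 had the larger knockdown difference in normoxia.

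Among cell cycle genes, the CDK inhibitor *CDKN1A* was the only reversed response, at 1618 and 3211 in control cells and 3890.3 and 2484 under the HIF2α-KD label. Its response was 0.98 in control cells and -0.64 under the label. The cyclin gene *CCND1* lost an induction of 1.11 (-0.25). Of 26 genes of this list these 2 passed the threshold, both with a lower response, against 1.78% of all genes. The list median was 0.19, and 16 genes lay above 0, against 4840 of all 9749 genes. They were led by *RRM2* (0.72), a subunit of ribonucleotide reductase, and *CCNB2* (0.70), a mitotic cyclin.

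Gained repressions were led by *YTHDC2*, which encodes an RNA helicase that binds m6A. It read 551 and 758 in control cells and 469.7 and 106 under the HIF2α-KD label. The hypoxic array with the label stood far below the other 3, and the response was -1.99 there against 0.45 in control cells. *YTHDC2* has 1 probe set with a single gene symbol that passed the filter. In *PRSS23*, a serine protease gene, *SLC2A9*, a urate transporter gene, and *SNAP91* the gained repression came from a high normoxic array labelled HIF2α-KD. *PRSS23* read 1451 there and 275, 393 and 421 elsewhere, and its other 2 probe sets differed by -2.16 and -1.74. *SLC2A9* read 225 there and 75.5, 92.2 and 49.4 elsewhere. The clock repressor gene *BHLHE41* had a response of -0.32 in control cells and -1.36 under the label. Of the 11 gained repressions 10 were higher under the label than in control cells in normoxia, which the definition makes likely. Of all 9749 genes 4247 were.

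Gained inductions were fewer and had the reverse order. *IDO2*, an enzyme of tryptophan breakdown, read 631 and 745 in control cells and 148 and 689 under the HIF2α-KD label. Its normoxic array with the label was low and the other 3 were near each other, so the response of 2.10 under the label stood against 0.24. Its other 3 probe sets differed by -0.09 to 1.41. *VLDLR*, a lipoprotein receptor and HIF target, read 289.7 and 298 in control cells and 64.5 and 199.6 under the label, and differed by 1.38. *CYP4A11*, a fatty acid hydroxylase gene of the renal tubule, differed by 1.65 and *EFEMP1*, a matrix protein gene, by 1.59. *ARPP21*, *TMEM181*, *ERICH2* and *CLIP3*, which were also gained, were dim on at least 2 arrays. *TMEM181* and *ERICH2* passed the filter only through the hypoxic array with the label, at 31.1 and 58.8. *CLIP3* otherwise reached it only on the hypoxic control array, at the filter value of 28.75. For these genes the filter itself favours a gained induction. All 8 gained inductions were lower under the label than in control cells in normoxia, which the definition makes likely. Of all 9749 genes 5500 were.

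In the other direction, *TMEM139* had the largest response difference, 2.96. It read 98.9 and 6.39 in control cells and 64.1 and 105 under the HIF2α-KD label. Only the hypoxic control array was low, and it lay below background, so the size of the control response of -2.36 is uncertain. *UGT1A6*, a glucuronidation enzyme, read 164 and 33.6 in control cells and 150.0 and 170.2 under the label, and its repression of -1.86 was lost (0.17). Again the hypoxic control array stood apart, but the other probe set of *UGT1A6* differed by 0.45 and not by 2.03. With 1 probe set per gene *UGT1A6* was the only one of 16 measured NRF2 targets past the threshold, against 0.749% of all genes with a higher response. *NQO1*, the best known of them, was repressed in both pairs (-1.97 and -2.72) at its brightest probe set, with a difference of -0.75. Of its other 2 probe sets one differed by -0.85 and one was lower past the threshold. *OSR1*, a transcription factor of kidney development, read 294 and 136 in control cells and 150.3 and 208 under the label, and differed by 1.46. Of the 8 lost and 13 reversed repressions, 1 of the former and 5 of the latter were below background on some array.

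Of the interferon-stimulated genes some passed the threshold in each direction. *MX1*, an antiviral GTPase gene, read 699 and 381 in control cells and 581 and 925 under the HIF2α-KD label. The hypoxic arrays were the lowest and the highest of the 4, so a response of -0.85 in control cells was reversed to 0.66. *IFI44L* was at 817 and 567 in control cells and at 648 and 1189.7 under the label, with a response difference of 1.38, or 1.54 and 1.59 in its other 2 probe sets. *RTP4*, a chaperone gene induced by interferon that is not on the list, differed by 1.57. *ISG15*, a ubiquitin-like modifier (1.14), *USP18*, its protease (1.17), and *DHX58*, an RNA sensor (1.00), were named after their values were seen. In contrast *GBP5*, another interferon-induced GTPase gene, was reversed downward, at 37.9 and 108 in control cells and 158 and 33.6 under the label, with a difference of -3.01. *ISG20*, an exonuclease gene, had a smaller induction under the label, 0.81 against 2.49. Of 24 measured genes 5 were higher and 3 lower by at least 1, against 0.749% and 1.78% of all genes, and the other 16 passed in neither direction. The list median was 0.11. The median response was -0.10 in control cells and 0.35 under the label.

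Of 20 measured genes of sterol biosynthesis 3 had a response of at least 1 in control cells and 10 under the HIF2α-KD label. Over all genes the shares were 3.02% and 1.37%. The median response of the list was 0.60 and 1.02. *HMGCS1*, which encodes a synthase upstream of HMG-CoA reductase, read 5577 and 10579.9 in control cells and 2388 and 10600.1 under the label. The hypoxic arrays were alike, and the normoxic array labelled HIF2α-KD was lower than the control array. *INSIG1*, a sensor of sterol levels, read 475 and 1269.9 in control cells and 153 and 939 under the label. *HMGCS1* differed by 1.22 and *INSIG1* by 1.11, and they were the only ones past the threshold, against 0.749% of all genes. The other probe set of *INSIG1* differed by only 0.25. The list median was 0.33, and 18 of 20 lay above 0, against 4840 of all 9749 genes. Genes of the integrated stress response, the answer to amino acid and folding stress, had a median of 0.16 over 21 genes. The response was higher by at least 1 in 3 and lower in 1, *DDIT3*, against 0.749% and 1.78% of all genes. *SESN2*, 1 of the 3, was below background on every array but the hypoxic one with the label. It passed the filter only through that array, at 28.85. *FGF21*, a metabolic hormone gene, read 368 and 1041 in control cells and 53.8 and 465 under the label. The array labelled HIF2α-KD was the lower one at both oxygen levels, and the larger response of 2.78 against 1.46 followed from the lower normoxic one. In *PPP1R15A*, a phosphatase subunit gene of the same response that was named after its values were seen, the array with the label was also lower at both levels, and the response difference was -0.96. Among 19 chaperone genes of the endoplasmic reticulum, which were listed apart, *MANF* (-1.01) alone passed -1, against 1.78% of all genes. The median of these 19 was -0.18.

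Genes of the primary cilium, the sensory organelle of tubule cells, were looked at after *DCDC2* was seen among the largest differences, so that their list was chosen with these values known. Of 46 measured genes 6, with *DCDC2* among them, had a higher response by at least 1 and none a lower one, against 0.749% and 1.78% of all genes, and the median was 0.25. *DCDC2*, a microtubule-binding protein of the cilium, read 209 and 109 in control cells and 93.9 and 227 under the HIF2α-KD label. Its arrays fell into a high pair, the normoxic control array and the hypoxic array with the label, and a low pair, the mirror image of *PLAU*. *TMEM67*, of the ciliary transition zone, read 257 and 199.6 in control cells and 143 and 245 under the label, and differed by 1.05. *TTC8*, a subunit of the BBSome that carries cargo to the cilium, differed by 1.03, its regulator *LZTFL1* by 1.10, the pericentriolar gene *PCNT* by 1.26 and *RPGRIP1L*, which was below background on the hypoxic control array, by 1.04. The median response of the list was -0.21 in control cells and 0.06 under the label.

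Most canonical HIF targets had a response difference below the threshold, but the share past it was larger than among all genes (2.53%). The 23 measured targets of glycolysis and energy metabolism had a median response of 0.67 in control cells and 0.73 under the HIF2α-KD label. Of them 8 and 9 were induced by at least 1, against 3.02% and 1.37% of all genes. The response was lower by at least 1 in 2 of the 23, against 1.78% of all genes. Their median response difference was -0.0141, and its sign was the opposite with quantile normalization or median centring. *PDK1*, which keeps pyruvate out of mitochondria, read 438 and 2956 in control cells and 303 and 2711 under the label, with responses of 2.71 and 3.09. *ALDOC*, an aldolase, read 266 and 1739 in control cells and 237 and 1577 under the label, and its responses differed by 0.02. In both genes the hypoxic arrays stood far above the normoxic ones in either cell line. *PFKFB3*, which makes the activator of phosphofructokinase, was the exception in a bright gene. It read 896 and 6706 in control cells and 1461 and 4979.8 under the label, and its induction of 1.76 under the label was smaller than that of 2.88, while its other 2 probe sets differed by -1.27 and -1.18. The brightest probe set of *PKM*, the pyruvate kinase gene, was dim (17.5 to 195) and differed by -1.19, and its other one differed by -0.45.

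Secreted and membrane targets of HIF had a median response of 1.18 in control cells and 0.98 under the HIF2α-KD label, and 14 and 13 of 27 were induced by at least 1. The response was higher by at least 1 in 1 of them, *VLDLR*, and lower in 3, against 0.749% and 1.78% of all genes. The median difference was -0.25. *ADM*, which encodes the vasodilator adrenomedullin, read 397 and 9897 in control cells and 436 and 5268 under the label. It had the largest control response of the list, and that response was smaller under the label, 3.55 against 4.59. *NDRG1*, a hypoxia-induced gene of unclear function, was below background on both normoxic arrays and read 445 and 145 on the hypoxic control array and the one with the label. Its responses were 3.92 and 2.23. *VEGFA*, the angiogenic growth factor gene, read 1447 and 3752 in control cells and 535 and 2137 under the label. The array with the label was lower at both oxygen levels and the response was not smaller (1.36 and 1.97), while another probe set differed by -0.20. *LOX*, the collagen crosslinking enzyme gene, differed by -0.37. Of the 12 genes of the HIF pathway itself *EPAS1* alone passed the threshold, with a lower response, against 1.78% of all genes. *EGLN3* kept its response (3.25 and 2.91) at its brightest probe set, but its other probe set differed by -1.15. The median of this list was -0.0115, and it too changed sign with quantile normalization, median centring or averaged probe sets.

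**Figure D3:**
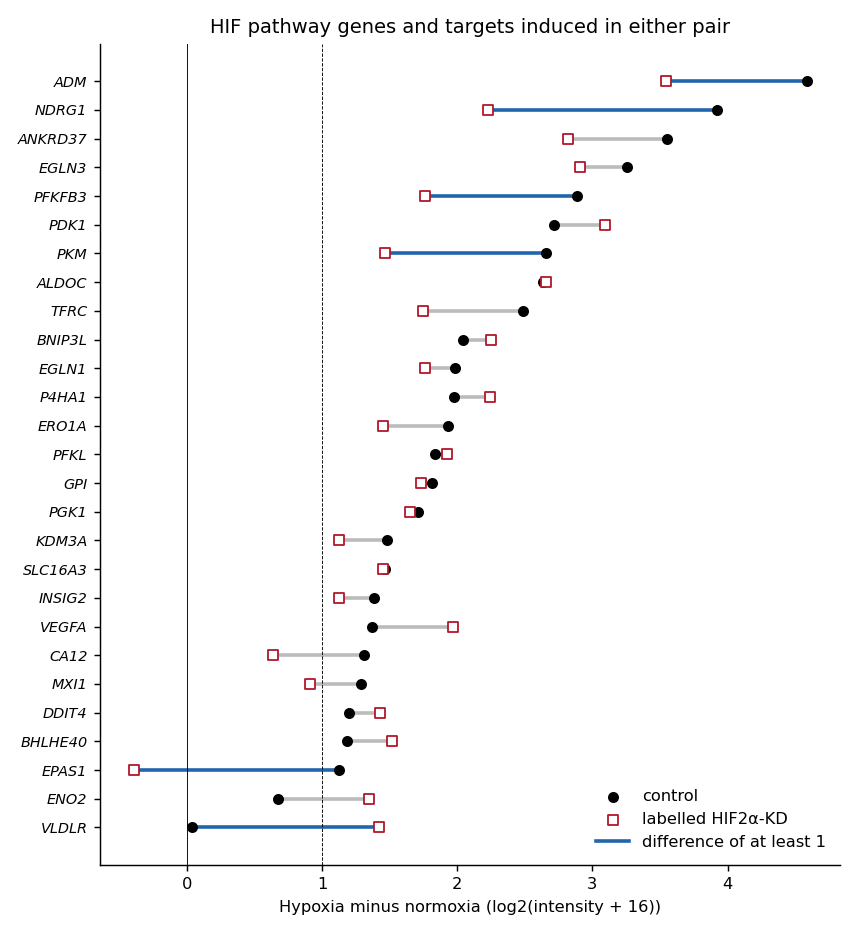
Hypoxia response of the 27 HIF pathway genes and targets that were induced by at least 1 in control cells or under the HIF2α-KD label, as differences of log2(intensity + 16). Black circles stand for control cells, open red squares for the label, blue bars for a response difference of at least 1, which 6 genes have, and the dashed line for a response of 1. Of these 6, *VLDLR* alone moves to the right under the label.

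Junction genes, which the study is about, passed the threshold at a share near that of all genes (2.53%). With 1 probe set per gene, the actin linker gene *LIMA1* (-1.08) alone passed it among 16 genes of adherens junctions. Its other probe set differed by -0.46. *ACTN1*, on the same list, differed by -0.83, and by -1.27 in its other probe set. Of the 16 genes 13 lay below 0, with a median of -0.47. Of all 9749 genes 1.78% had a lower response by at least 1 and 4909 lay below 0. *CDH1*, which encodes E-cadherin, was below background on both normoxic arrays (15.5 and 18.9) and read 119 in hypoxia in control cells and 81.4 under the HIF2α-KD label. Its responses at this 1 probe set were 2.10 and 1.48, on a scale that understates the change of dim genes. The study detected E-cadherin mRNA and protein in normoxic control cells. The values here therefore cannot show how much *CDH1* RNA normoxic cells held, and the size of these responses is uncertain. *CTNNB1*, which encodes β-catenin, had a response difference of -0.30, and *TJP1*, the gene of the tight junction protein ZO-1, one of -0.21. None of 10 desmosome genes, 15 tight junction genes or 18 genes of Rac and Dock signalling passed the threshold, with medians of -0.27, -0.21 and -0.14. *RAC1* differed by -0.09. Its effector gene *PAK1* differed by -0.03, and by 0.74 in its other probe set. Outside the list, and named after their values were seen, *DOCK8*, of the same family of exchange factors as *DOCK4*, had a higher response (1.01), at 228 and 184 in control cells and 214 and 363 under the label. *TRIO*, an exchange factor for Rac, lost an induction of 1.02 (0.01), with a difference of -1.01 and of -1.16 and -0.17 in its other 2 probe sets. *DOCK4* did not pass the intensity filter. The epithelial markers had a median of 0.02. *TBP*, a reference gene in the study, differed by 0.02, and by 0.39 in its other probe set.

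Of the remaining lists, 9 genes of iron uptake and storage had a median of 0.06, with none past the threshold, against 2.53% of all genes. This includes *TFRC*, the transferrin receptor gene, at -0.74. Among 15 histone and RNA demethylases and related genes 2 were lower by at least 1, *YTHDC2* and the dim gene *KDM7A* (-1.06). *KDM7A* passed the filter only through the hypoxic control array, at 33.7. The share over all genes was 1.78%, and the median of the list was -0.34. The 9 circadian clock genes had a median of 0.05, with *BHLHE41* alone past the threshold, with a lower response, against 1.78% of all genes. These lists and their members were chosen with results of the same arrays known, so that a list's count and median describe these 4 arrays. In a culture measured as bulk RNA, fewer cells that express a gene and less RNA of it per cell cannot be told apart.

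**Figure D4:**
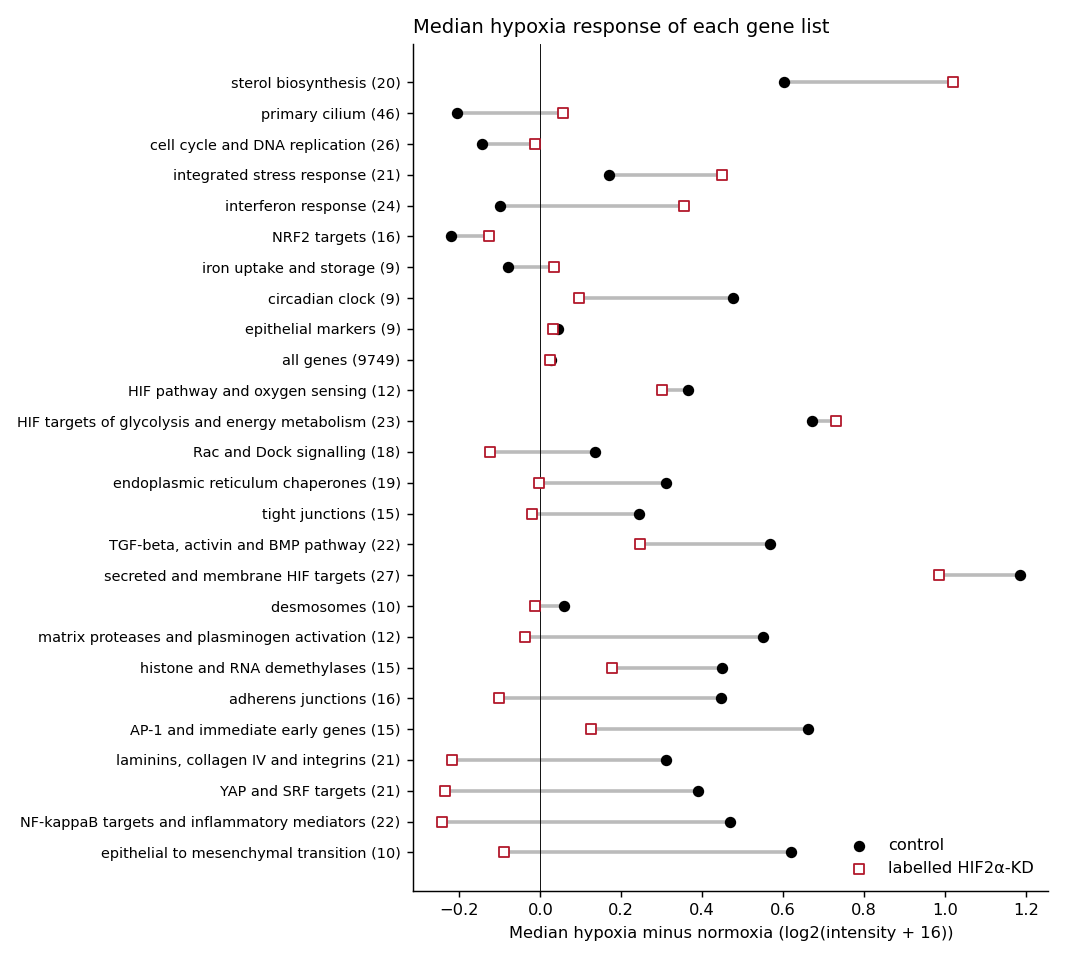
Median hypoxia response of each list with at least 8 measured genes and of all genes, in control cells (black circles) and under the HIF2α-KD label (open red squares), as differences of log2(intensity + 16), with the number of genes in brackets. Lists are ordered by the median response difference, from 0.33 for sterol biosynthesis at the top to -0.80 for epithelial to mesenchymal transition at the bottom, and the cilium list was added after the values were seen. The HIF targets of glycolysis lie at 0.67 and 0.73, whereas the inflammatory list lies at 0.47 and -0.24.

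Which pair of arrays had the larger knockdown difference varied among the 247 genes. The knockdown difference was larger in size in normoxia for 123 of them and in hypoxia for 124. Of the 174 with a lower response, 159 were higher under the HIF2α-KD label than in control cells in normoxia and lower in hypoxia, and of the 73 with a higher response 66 had the reverse. Since the response difference is the knockdown difference in hypoxia minus that in normoxia, opposite signs follow in large part from its size. In the normoxic pair 61 of the 247 reached a knockdown difference of 1, against 1.16% of all genes. In the hypoxic pair, where *EPAS1* was lower under the label, 42 did, against 0.985%. The 247 were chosen by the difference between these same values, so that larger shares among them are built in. Both pairs reached it in 9 genes and neither in 153. The response was opposite and at least 1 in size in both cell lines in 8 genes, or 0.0821%. With the added demand of a knockdown difference of at least 1 in hypoxia, which was chosen after the data were seen, 18 of the 67 lost, 11 of the 50 reversed and 3 of the 19 gained responses were left, among them *EPAS1*, *PLAU*, *INHBA*, *SNAI2*, *FST*, *DUSP1*, *NFKBIA*, *GBP5*, *YTHDC2*, *UGT1A6* and *MX1*, and not *CCL2*, *MMP13*, *BIRC3*, *PTGS2*, *IDO2* or *VLDLR*.

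**Figure D5:**
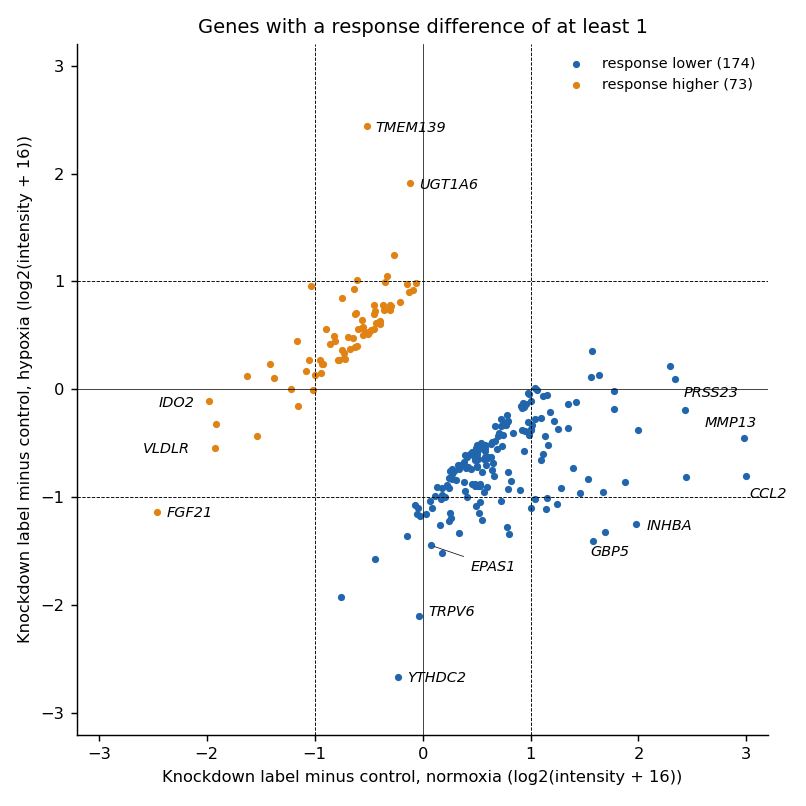
Knockdown difference (HIF2α-KD label minus control, on the scale of log2(intensity + 16)) in normoxia on the horizontal axis and in hypoxia on the vertical axis for the 247 genes with a response difference of at least 1. The 174 genes with a lower response are in blue and the 73 with a higher one in orange, and dashed lines mark a knockdown difference of 1. *CCL2* and *MMP13* lie far to the right, so that their response difference comes mostly from the normoxic pair, and *YTHDC2*, *TRPV6*, *EPAS1* and *UGT1A6* lie near 0 there and far from 0 in hypoxia.

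The spread that these arrays allow to be seen is that between probe sets and not between cultures. Over 4910 genes with several probe sets the pooled SD of the response difference within a gene was 0.264, and the SD across genes was 0.403, with 95% of genes from -0.89 to 0.70. The 63 reporter probe sets, which should show no response, had differences of -0.92 to 1.06, and 2 of them passed 1 in size. Of the 247 genes 113 had other probe sets that passed the filter, and all of these had the same sign in 100 genes, some in 7 and none in 6. Just inside the threshold, 76 genes had a response difference of 1 to 1.1 in size, and just outside it 98 had one of 0.9 to 1. In 27 genes it was at least 2, and in 25 of them the response was lower under the HIF2α-KD label. Of the 247 genes 68 were below background on at least 1 array and none on all.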

How the data were processed

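RNA of MDCK cells was labelled with biotin by a 3' kit and measured on 4 Affymetrix canine arrays. The deposited table gives 1 linear intensity per probe set and array. How the authors made these intensities from the scans, with the software, the background correction and the scaling, is not given in the sources used here.

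Of 42924 probe sets 29254 carry 1 gene symbol in the platform annotation, 439 carry several and 13167 none, and 64 are reporter controls. Gene identifiers of 27680 matched a RefSeq table, which changed 0 symbols. Of 17194 named probe sets past the filter (highest intensity at least 28.75), the one with the highest mean of log2(intensity + 16) stood for its gene. The classes used thresholds of 1 and 0.5. Without replicates no test was made and array number limits the precision. Differences and classes were computed with Python 3.11.15, numpy 2.4.6 and pandas 2.3.3 and tested on simulated data.

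Genes named were *EPAS1* and those the study names, the 12 largest response differences in each direction, up to 8 per direction of lost, gained and reversed responses, up to 4 per list, and 5 kept responses per direction, without LOC symbols. Others are said to have been named after their values were seen. The comparison, the lists and the members were chosen with earlier results of these data known. Alternatives were quantile, cyclic loess (R 4.3.3, limma 3.58.1) and median scaling, pseudocounts of 1 and 64, the filter left out or set at the 75th percentile of intensity, averaging the probe sets of a gene, counting every probe set, and a 1.5-fold threshold. A further gene that the study names is not reported here. Coordinates and sequences are not given, as no genome was used.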

Additional observations from a re-analysis of the deposited data

Results flagged for a closer look

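In 8 genes the response was at least 1 in size in both cell lines and in opposite directions, and with 1 array per condition this difference between the cell lines was not tested. All 8 were inductions in control cells. The response difference was -3.80 for *CCL2*, -3.43 for *MMP13*, -3.25 for *BIRC3* and -3.01 for *GBP5*. It was -2.99 for *PLAU*, -2.41 for *BCAR3*, an adaptor of cell adhesion signals, -2.36 for *LAMA3* and -2.31 for *NFKBIA*. *BCAR3* read 103 and 283 in control cells and 310.4 and 138 under the HIF2α-KD label, and its other probe set differed by -1.11. Every response under the label uses its normoxic array, where *EPAS1* stood no lower than in control cells.

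A further 174 probe sets without a gene symbol passed the filter and had a response difference of at least 1 in size, 42 higher and 132 lower. These are 2.91% of the 5978 such probe sets, against 2.53% of the named genes, and none was used in a comparison.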

How the results depend on the processing

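The counts depend on how dim genes are weighed. With a pseudocount of 1 the response was higher in 183 genes and lower in 317, and 136 responses were lost, 119 reversed and 50 gained. With a pseudocount of 64 the numbers were 19, 87, 29, 26 and 9, and with the filter at the 75th percentile 30, 105, 42, 29 and 10. Counting all probe sets instead of 1 per gene gave 130, 306, 118, 81 and 39. A threshold of 1.5-fold gave 410, 658, 324, 231 and 113. With a knockdown difference of at least 1 also required in hypoxia, an alternative chosen after the data were seen, 18 lost, 11 reversed and 3 gained responses were left. Under quantile, loess and median scaling, no filter and averaged probe sets, each of these 5 counts was within 1.5 times the value given above. Of the 75 named genes past the threshold, 72 were past it with quantile normalization, 74 with loess, 74 with median centring, 64 with the mean of probe sets and 52 with a pseudocount of 64. No named gene past the threshold changed direction under these settings. Among lists, the median response difference ranged from -1.36 to -0.41 for the inflammatory list, from -1.22 to -0.19 for the protease list and from -0.82 to -0.48 for that of epithelial to mesenchymal transition. The small medians of the iron list (without the filter) and of the clock list (without the filter, with a pseudocount of 64 or with averaged probe sets) changed sign. Scaling moved the median of all genes from -0.0023 to at most 0.035.

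No paired analysis was possible because there is 1 array per condition. For the same reason no array can be left out, since the response difference needs all 4. The reporter probe sets limit what can be read from genes whose intensity lies below about 27.2.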
